A study of Mus musculus with 5 samples.

Results

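The genes that encode the inhibitors of the G1 cyclin-dependent kinases and the D-type cyclins were examined for the repressive histone mark H3K27me3 in mouse dermal fibroblasts. The set holds 9 of the 55450 annotated genes considered, namely Cdkn2a, Cdkn2b, Cdkn2c, Cdkn2d, Cdkn1a, Cdkn1b, Ccnd1, Ccnd2 and Ccnd3, taken by name. They form 8 loci when the neighbours Cdkn2a and Cdkn2b are joined. Each gene was scored in each peak list by the peaks that overlap a window of 3000 bp either side of any annotated start site or the gene body. All genes and coordinates are in GRCm38, the mm10 build.

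The measurements are H3K27me3 chromatin immunoprecipitation libraries of wild-type dermal fibroblasts, 2 labelled E14 and 2 labelled E17, with 1 list of broad peaks for each library. The study's methods name the stages E14.5 and E18.5, and the labels' names are kept here. The cells had been expanded in culture before fixation, in DMEM with serum per the labels and in AmnioMAX medium per the methods, so that the peaks belong to cultured cells and not to intact dermis. An input library is labelled for the series and was not analysed here.

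H3K27me3 is deposited by Polycomb repressive complex 2 and marks genes that are kept silent, often over broad domains. The INK4 inhibitors (p16 from the Ink4a transcript of Cdkn2a, p15 from Cdkn2b, p18 from Cdkn2c and p19 from Cdkn2d) bind Cdk4 and Cdk6 and block their pairing with D-type cyclins, which otherwise phosphorylate the retinoblastoma protein and let cells enter S phase. Cdkn2a also carries Arf, a transcript with its own start site and an alternative reading frame, whose protein stabilises p53. The CIP/KIP inhibitors p21 (Cdkn1a) and p27 (Cdkn1b) act on a wider range of cyclin and kinase pairs. In cultured fibroblasts the Ink4a and Arf locus is a textbook Polycomb target whose release accompanies senescence.

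The peak lists differed in size between the stages and between replicates. The E14 lists held 21546 and 16574 peaks covering 52.8 and 32.1 Mb, and the E17 lists held 10429 and 7107 peaks covering 20.0 and 14.3 Mb. These files do not give the number of reads behind a peak or a library, and a gene with no peak is a gene without a call at the threshold of its list, which is not the same as a gene without the mark. Fold enrichment was therefore used only as a rank within its own list, written as a percentile in which a higher value is a stronger peak. With 2 libraries against 2, the exact permutation test (two-sided) has 3 splits and cannot give a p below 0.333. The labels do not say whether replicates came from separate animals. Each p-value only ranks the stage difference among the 3 splits of these libraries and does not measure the spread between replicates. In these bulk cells, fewer cells with the mark and less of the mark per cell cannot be told apart.

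The mark was concentrated at 1 of the 8 loci. Cdkn2a carried a peak at a start site in all 4 libraries, Cdkn2b carried one in both E14 libraries and in neither E17 library, and Cdkn2c carried one in E14 replicate 1 alone. The other 6 genes (Cdkn2d, Cdkn1a, Cdkn1b, Ccnd1, Ccnd2 and Ccnd3) had no peak in a start-site window or in the gene body in any list. By gene, 2 of 9 members were marked in both E14 libraries, beside 11.6% of all annotated genes and 19.5% of protein-coding genes. In both E17 libraries 1 of 9 was marked, beside 7.11% of all annotated and 12.2% of protein-coding genes. The same gene, Cdkn2a, was marked in all 4 libraries, as were 6.98% of all annotated and 12.0% of protein-coding genes. A peak at a start site or in the body of at least 1 library was found for 3 of 9 members, beside 18.8% of all annotated and 29.3% of protein-coding genes. The 6 members with no peak compare with 81.2% of all annotated genes and 70.7% of protein-coding genes that had none in any list.

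**Figure D1:**
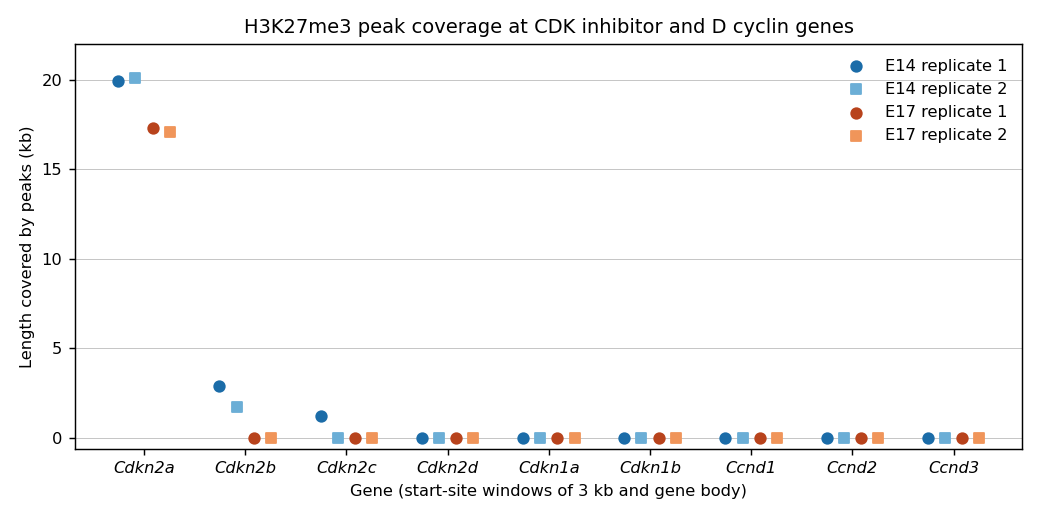
Length covered by H3K27me3 peaks (kb) in the start-site windows and gene body of each of the 9 genes, with 1 point for each library (blue, E14; orange, E17; circles, replicate 1; squares, replicate 2). Cdkn2a lies between 17093 and 20095 bp in every library, Cdkn2b and Cdkn2c lie above 0 only at E14, and the remaining 6 genes lie at 0.

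Cdkn2a (ENSMUSG00000044303, chr4:89274471-89294653, minus strand, both transcripts coding) was covered over most of its length by wide peaks. At E14 a single peak lay over the gene in each library, of 29379 bp in replicate 1 (chr4:89265046-89294424) and of 23956 bp in replicate 2 (chr4:89270610-89294565). At E17 there were 2 peaks in each library, of 14274 and 6864 bp in replicate 1 and of 13899 and 5534 bp in replicate 2. The widest peak over the gene ranked 70 and 57 by width in the E14 lists and 128 and 107 in the E17 lists.

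By fold enrichment the strongest Cdkn2a peak was also near the top of every list. Its fold enrichment was 7.78 and 6.92 at E14 and 5.15 and 5.09 at E17, which put it at percentiles 99.3, 97.8, 97.1 and 95.3 of the respective lists (ranks 158, 370, 305 and 332). The folds are not compared between lists, whose highest folds were 12.9 and 14.8 at E14 and 6.94 and 6.56 at E17. The mean percentile was 98.5 ± 1.06 (SD, n = 2) at E14 and 96.2 ± 1.23 (SD, n = 2) at E17, a difference of -2.31 (exact permutation test, p = 0.333). Both E17 values lay below both E14 values, but the difference turned to 6.70 when every list was reduced to its top peaks of equal covered length, so its direction depended on that choice. By covered length, Cdkn2a ranked 161 of 6044 protein-coding genes with any coverage in E14 replicate 1, 77 of 5073 in E14 replicate 2, 58 of 3711 in E17 replicate 1 and 35 of 3108 in E17 replicate 2. It therefore stood within the top 2.66% of covered genes in each library.

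The start sites of the transcripts of Cdkn2a differed in their cover. The Ink4a start (chr4, position 89282192) lay inside a peak in all 4 libraries, and the 1000 bp on either side of it were covered in full in each. The Arf start (position 89294653), at the upstream end of the gene, lay outside the peaks in all 4 libraries. The upstream edge of the peaks stopped 229 and 88 bp inside the Arf start at E14 and 2113 and 2261 bp inside it at E17. The first exon of Arf (320 bp) was covered over 28.4% and 72.5% of its length at E14, and 0% in both E17 libraries. The stages thus did not overlap at this edge (exact permutation test, p = 0.333, the smallest possible).

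The promoters of the 3 transcripts at this locus are shown because the peaks included one and stopped short of the others. Each is given 5′ to 3′ on the minus strand and ends at the base before the annotated start, with every CpG in capitals. The sequences are from the RefSeq promoters of GRCm38, which matched 7 of the 9 members by symbol.
Ink4a promoter, chr4:89282193-89282442: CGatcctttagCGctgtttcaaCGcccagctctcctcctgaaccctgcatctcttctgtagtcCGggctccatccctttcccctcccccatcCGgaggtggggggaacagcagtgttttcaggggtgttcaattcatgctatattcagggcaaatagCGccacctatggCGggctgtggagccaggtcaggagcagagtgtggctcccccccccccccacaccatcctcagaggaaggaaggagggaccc
Arf promoter, chr4:89294654-89294869: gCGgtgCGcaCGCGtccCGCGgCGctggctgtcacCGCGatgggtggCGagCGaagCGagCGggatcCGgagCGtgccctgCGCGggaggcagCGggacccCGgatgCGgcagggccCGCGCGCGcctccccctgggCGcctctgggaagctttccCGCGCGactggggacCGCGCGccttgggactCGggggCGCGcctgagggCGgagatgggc
Cdkn2b promoter, chr4:89311040-89311282: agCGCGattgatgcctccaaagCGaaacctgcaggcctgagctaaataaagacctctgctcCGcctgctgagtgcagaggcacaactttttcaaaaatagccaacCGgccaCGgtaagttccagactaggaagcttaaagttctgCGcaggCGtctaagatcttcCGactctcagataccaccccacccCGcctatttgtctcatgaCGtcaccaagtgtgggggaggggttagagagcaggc
The Ink4a stretch of 250 bases held 7 CpG and was covered over all of its bases in the 4 libraries. The Arf stretch of 216 bases held 35 CpG and had 0 covered bases in each list, and the Cdkn2b stretch of 243 bases held 11 CpG and likewise had 0 covered bases.

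The start sites of the 3 transcripts also differed in CpG density over a wider stretch. Within 1000 bp either side of the start, the sequence held 8.35 CpG per 100 bases at Arf, 2.85 at Ink4a and 4.25 at Cdkn2b. The Ink4a start, the only one of the 3 inside a peak, thus had the lowest density, and the sequence between the genes, with no peak in any library, held 1.86. The Arf stretch was not free of peaks, which covered 38.6% and 45.6% of it at E14 and 0% at E17. The peaks at Cdkn2a shared 19166 bp across all 4 libraries, of which the longest unbroken part was 12796 bp (chr4:89272131-89284926) with 2.02 CpG per 100 bases. In the 250 bases upstream of each RefSeq start, 46.3% of 32851 promoters held at least as many CpG as Ink4a (7), 33.5% at least as many as Cdkn2b (12) and 1.31% at least as many as Arf (40).

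**Figure D2:**
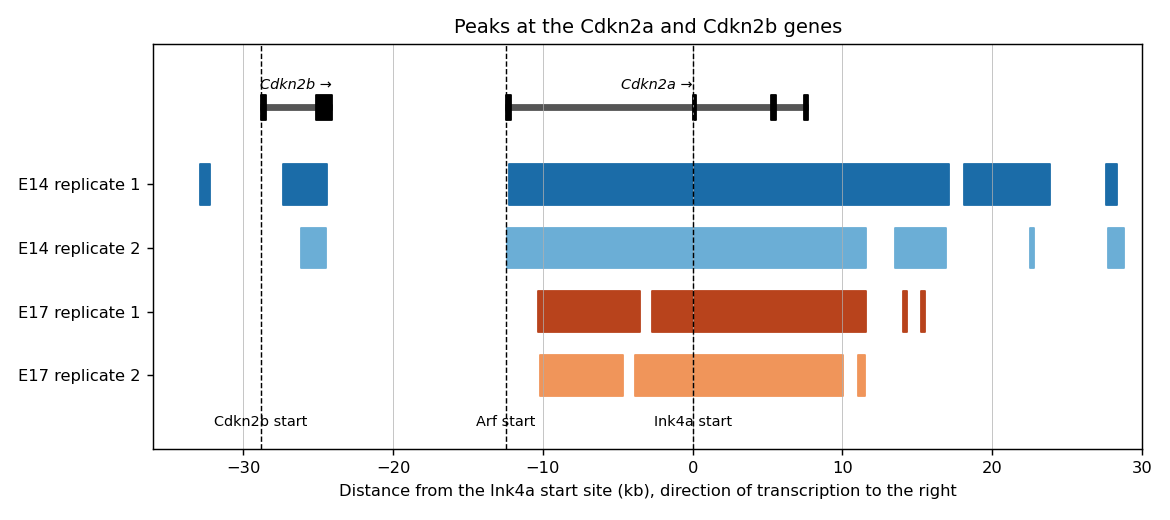
Peaks of each library over Cdkn2a and Cdkn2b, drawn to scale as distance from the Ink4a start site (kb) with transcription running to the right. Gene bodies are grey, exons are black and dashed lines mark start sites. The peaks cover the Ink4a start in all 4 libraries, stop before the Arf start, leave the 11645 bp between the genes bare, and lie over Cdkn2b at E14 alone.

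Within Cdkn2a the Ink4a part was covered in full at both stages and the part upstream of it was not. The first exon of Ink4a, the second exon, which both transcripts share, the intron between them and the last exon were covered over 100% of their length in all 4 libraries. The 12141 bp between the first exons of Arf and Ink4a were covered over 100% at E14, 79.1% in E17 replicate 1 and 77.2% in E17 replicate 2. Each E17 library had a gap there, of 750 bp (chr4:89284927-89285676) in replicate 1 and of 829 bp (chr4:89286030-89286858) in replicate 2. The gaps did not overlap each other and lay 2735 and 3838 bp upstream of the Ink4a start.

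On its downstream side the Cdkn2a domain varied most between replicates. The peak ran past the end of the gene by 9425 and 3861 bp at E14 and by 3818 and 2340 bp at E17. The E14 replicate 2 and E17 replicate 1 values are close to each other, although the stages do not overlap. From its outermost edges, the domain spanned 29379 and 23956 bp at E14 (26668 ± 3835, SD, n = 2) and 21888 and 20262 bp at E17 (21075 ± 1150, SD, n = 2). It was 21.0% shorter at E17 (exact permutation test, p = 0.333).

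The stages did not overlap in covered length at Cdkn2a. In the start-site windows and body, 19954 and 20095 bp were covered at E14 (20024 ± 99.7, SD, n = 2) and 17320 and 17093 bp at E17 (17206 ± 161, SD, n = 2). The covered length was 14.1% lower at E17, and the difference of 2818 bp was larger than the spread between replicates, with a permutation p of 0.333 that this design cannot go below. Cdkn2a was 1 of many such genes. Among the 2645 protein-coding genes with a start-site peak in all 4 libraries, 81.9% had less covered length in both E17 libraries (78.1% of all annotated genes with such peaks), and the median decrease was 44.2% (quartiles 25.9% and 59.9%). Among the 74 protein-coding genes with at least 20000 covered bp in both E14 libraries, the median decrease was 47.0% (quartiles 32.7% and 63.9%). The decrease at Cdkn2a was below the lower quartile of the larger group, to which it belongs. Counted in full, with the parts past the gene end, the peaks over Cdkn2a covered 23.9% less at E17. That measure was not taken for the other genes.

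Cdkn2b (ENSMUSG00000073802, chr4:89306299-89311039, minus strand), the p15 gene that lies upstream of Arf, had a separate and weaker peak at E14. Replicate 1 had a peak of 2923 bp (chr4:89306629-89309551, percentile 58.2) and replicate 2 a peak of 1716 bp (chr4:89306640-89308355, percentile 74.8), and both E17 libraries had 0 covered bp. These peaks lay over the downstream part of the gene, in the intron (66.8% and 31.1% covered) and the last exon (67.5% and 66.4% covered), and not over the first exon, which had 0 covered bp in every list. Their nearest edges lay 1488 and 2684 bp inside the start site, so the replicate 2 peak reached the window of 3000 bp by 317 bp. At E17 the nearest peaks were those of Cdkn2a, 13759 and 13907 bp from the gene.

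The Cdkn2b peaks depended on the threshold of the list. They were absent from both E14 libraries once peaks were kept only at a −log10 q-value of at least 5 or as top peaks of equal covered length, and absent from replicate 1 when each list was reduced to its 7107 top peaks. The Cdkn2a body kept 19954 and 20095 covered bp at E14 in these 3 settings. At E17 the Cdkn2a body kept its covered length in replicate 1, and in replicate 2 had 11559 bp at that q-value limit. Over Cdkn2a and Cdkn2b together, 22877 and 21811 bp were covered at E14 (22344 ± 754, SD, n = 2) and 17320 and 17093 bp at E17 (17206 ± 161, SD, n = 2), a difference of 5138 bp or 23.0% (exact permutation test, p = 0.333). With top peaks of equal covered length the difference was 2818 bp, that of Cdkn2a alone. This was the single locus of the 8 with less covered length in both E17 libraries, beside 11.1% of all annotated and 18.9% of protein-coding genes.

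Cdkn2c (ENSMUSG00000028551, chr4:109660876-109667189, minus strand), which encodes p18, lies far from Cdkn2a on the same chromosome. E14 replicate 1 had a peak of 943 bp and a peak of 291 bp in its body, at percentiles 26.8 and 10.2, covering 1234 bp together, and the other 3 libraries had 0 covered bp. The start-site call in this gene therefore rested on a single library and on weak peaks with −log10 q-values of 2.71 and 2.55, and without E14 replicate 2 the number of loci marked at E14 would be 2 in place of 1. A stronger peak lay just downstream of the gene, outside the scored stretch. It measured 7037 bp in E14 replicate 1 (percentile 90.9, from 435 bp past the gene end) and 5263 bp in E14 replicate 2 (percentile 87.4, from 522 bp past the end). Neither E17 library had a peak there, and the nearest E17 peaks were 304842 and 305512 bp from the gene. The means were 6150 ± 1254 bp at E14 (SD, n = 2) and 0 at E17, and the groups did not overlap (exact permutation test, p = 0.333). With top peaks of equal covered length, E14 replicate 1 had 0 bp there and replicate 2 kept 5263 bp, so that the stages overlapped. This downstream stretch was described after its values were seen.

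Cdkn2d (ENSMUSG00000096472, chr9:21288410-21291407, minus strand), the p19 gene of the INK4 family, had no peak in its windows or body. Its nearest peaks lay 20062 and 20229 bp away at E14 and 20362 and 20330 bp away at E17. In each library that was the peak at Ap1m2, which encodes an epithelial adaptor subunit of clathrin vesicles, at percentiles 98.2 and 97.0 at E14 and 87.4 and 68.1 at E17. The 4 distances lay within a narrow range, and the percentile of that peak was lower in both E17 libraries than in both E14 libraries. The lists differ in size, and whether that order holds with lists of equal covered length was not tested.

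Of the CIP/KIP genes, Cdkn1a and Cdkn1b had no peak at a start site. Cdkn1a (ENSMUSG00000023067, chr17:29090976-29100727, plus strand), the p53 target that encodes p21, had no peak in the scored stretch and small peaks downstream of it at E14. Those covered 1685 and 1715 bp within 10 kb of the gene end, beginning 3416 and 2129 bp past it, and their best percentiles were 79.8 in replicate 1 and 14.8 in replicate 2. These percentiles belonged to different peaks, of 532 and 276 bp, each called in its own replicate only. The peak called in both replicates (chr17:29104143-29105295 and chr17:29104150-29105588) lay at percentiles 0.534 and 0.603, near the bottom of each list. Both E17 libraries had 0 covered bp within that 10 kb, and their nearest peaks were 88837 and 89417 bp away. The difference between 1700 ± 21.2 (SD, n = 2) and 0 bp could reach no p below 0.333 (exact permutation test). This stretch too was described after its values were seen. Cdkn1b (ENSMUSG00000003031, chr6:134920401-134925513, plus strand), which encodes p27, had its nearest peak 31656 and 32088 bp away at E14, and 115324 and 1244976 bp away at E17.

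Among the D cyclins, Ccnd2 was the only gene with a peak close by in every library. Ccnd2 (ENSMUSG00000000184, chr6:127125162-127152193, minus strand) had none in its 3000 bp windows, but a stretch upstream of it was covered over 3446 and 2287 bp at E14 and over 1755 and 3084 bp at E17. The nearest edge was 3048 and 3255 bp from the outermost start site at E14 and 3325 and 3263 bp from it at E17, just outside the window. The Cdkn2b peaks given above lay inside the window, at 1488 and 2684 bp, the latter near its edge. The best percentile in the Ccnd2 stretch was 88.7 and 81.1 at E14 and 91.8 and 81.1 at E17. Covered length was 2866 ± 820 bp (SD, n = 2) at E14 and 2420 ± 940 bp (SD, n = 2) at E17, and the stages overlapped (exact permutation test, p = 0.667). With top peaks of equal covered length from each list, this stretch held 0 covered bp in both E14 libraries and 1755 and 3084 bp at E17. With peaks kept at a −log10 q-value of at least 5, it held 3446 and 744 bp at E14 and 859 and 0 bp at E17. Its presence in every library and the order of the stages thus depended on the threshold of the list.

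The upstream Ccnd2 stretch is annotated as part of 9330179D12Rik, an antisense gene (chr6:127149389-127212411, plus strand) that overlaps the first part of Ccnd2. Peaks of all 4 libraries shared 1570 bp in 2 pieces, of 674 bp (chr6:127155518-127156191) and 896 bp (chr6:127157167-127158062). The middle of the piece nearer to Ccnd2 is shown because it was covered in every library. It is written 5′ to 3′ on the minus strand, in the direction of Ccnd2 transcription, with CpG in capitals.
Ccnd2 upstream, chr6:127155705-127156004: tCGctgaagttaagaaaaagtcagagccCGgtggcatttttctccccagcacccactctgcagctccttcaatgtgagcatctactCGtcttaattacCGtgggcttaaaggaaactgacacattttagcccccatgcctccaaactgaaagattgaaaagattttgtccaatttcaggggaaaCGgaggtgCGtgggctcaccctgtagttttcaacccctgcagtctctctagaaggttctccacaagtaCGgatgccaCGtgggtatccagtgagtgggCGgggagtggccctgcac
These 300 bases held 9 CpG and 51.0% G and C. The piece of 674 bp held 2.52 CpG per 100 bases.

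**Figure D3:**
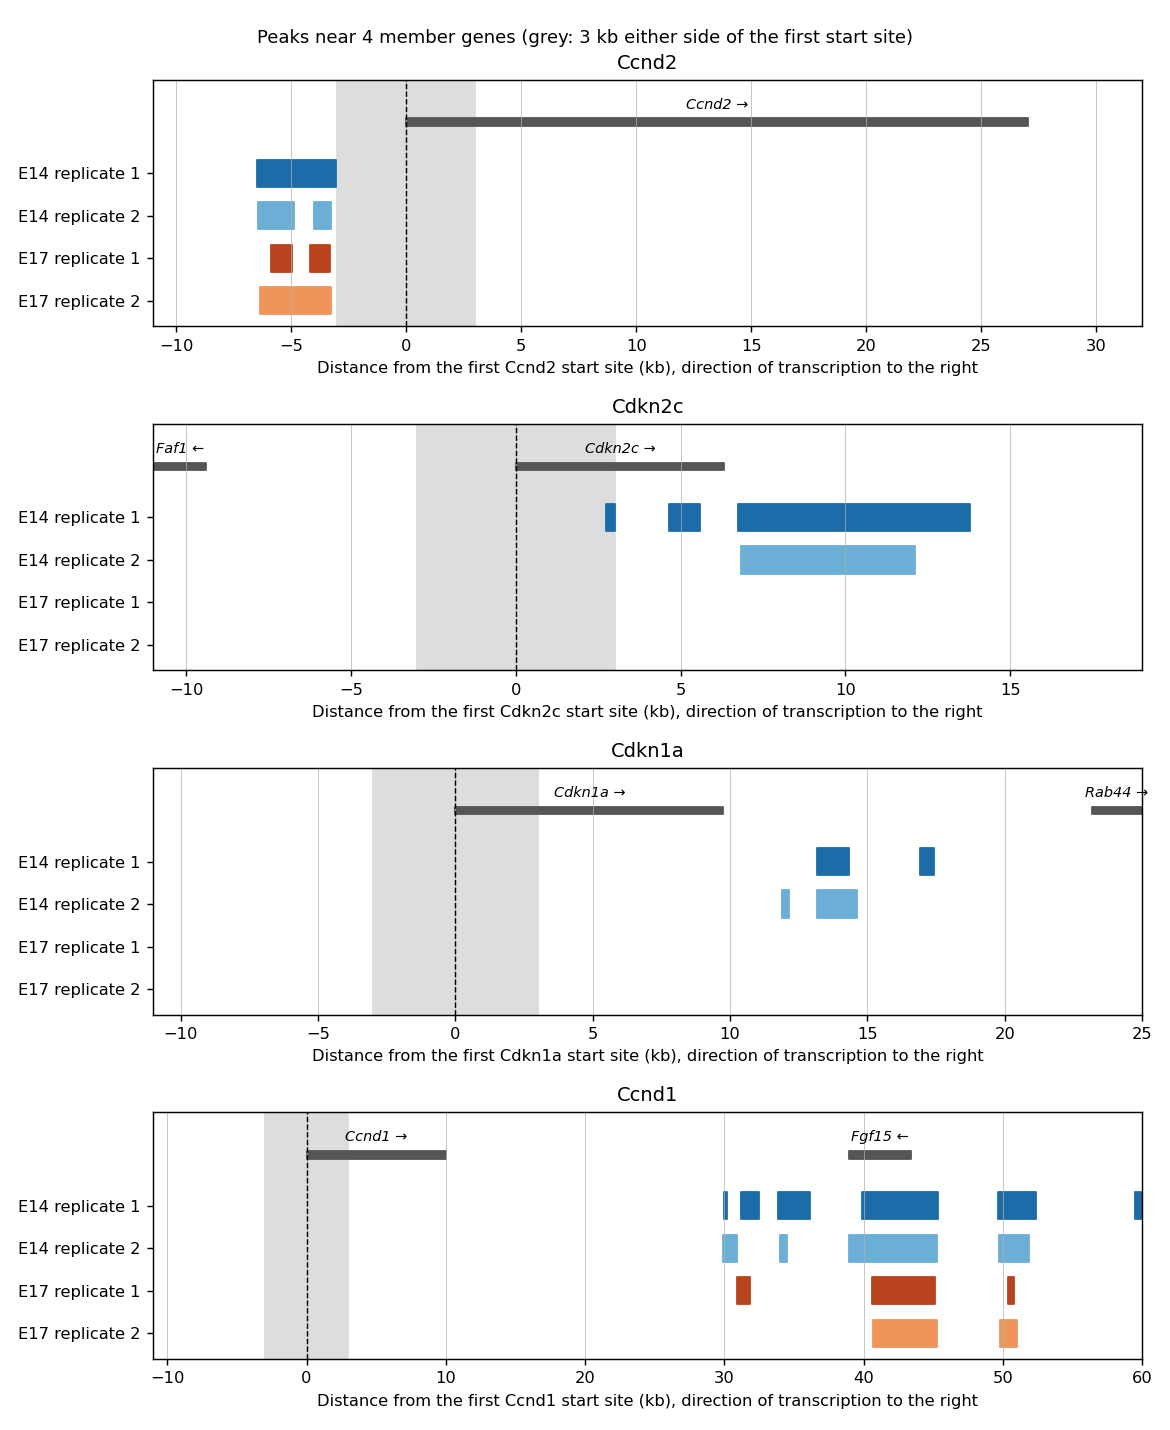
Peaks of each library around Ccnd2, Cdkn2c, Cdkn1a and Ccnd1, as distance from the first start site (kb) with transcription running to the right. The grey band is 3 kb either side of that start site and dark bars are genes. The Ccnd2 peaks lie just upstream of the band in all 4 libraries, the Cdkn2c and Cdkn1a downstream peaks are present at E14 alone, and the peaks near Ccnd1 lie around Fgf15.

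Ccnd1 and Ccnd3 had no peak in their windows or bodies. Ccnd1 (ENSMUSG00000070348, chr7:144929931-144939925, minus strand), a cyclin whose gene is induced by growth factors, had its nearest peaks 19977 and 19901 bp away at E14 and 20912 and 30701 bp away at E17. Its neighbours Fgf15, Fgf4 and Fgf3, which encode secreted growth factors, were marked at a start site in all 4 libraries. At Fgf15 5007 and 4916 bp of the windows were covered at E14 and 4463 and 4565 bp at E17. The nearest peak to Ccnd1 was the one at Fgf15 in E17 replicate 2, and in the other 3 libraries it was a smaller peak of 252 to 1037 bp between Ccnd1 and Fgf15. Ccnd3 (ENSMUSG00000034165, chr17:47505051-47599691, plus strand) is the longest member at 94641 bp and held no peak along that length. Its nearest peaks were 36223 and 36207 bp away at E14, and 90398 and 36231 bp away at E17.

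**Figure D4:**
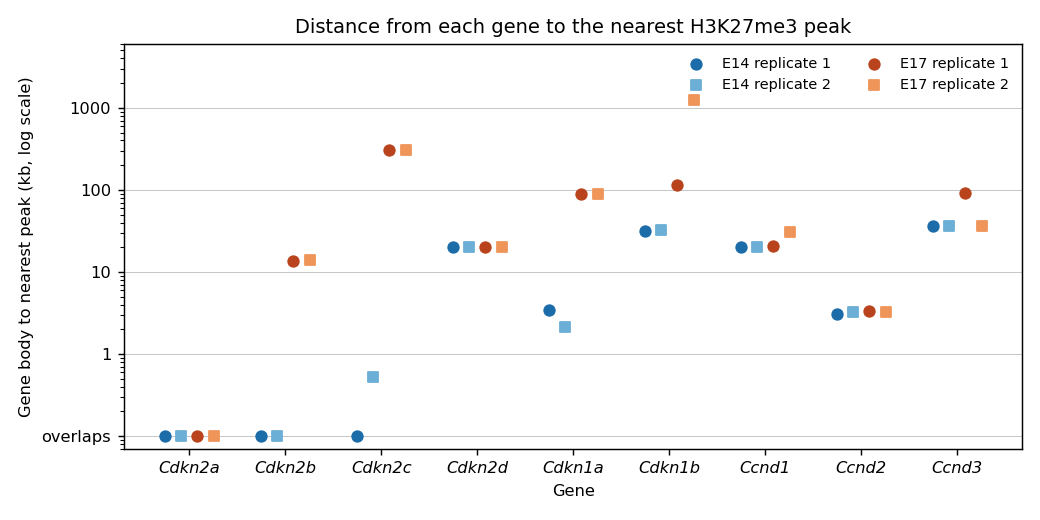
Distance from each gene body to the nearest peak of each library (kb, log scale). Points at the base are genes that a peak overlaps. Cdkn2a is overlapped in all 4 libraries, Ccnd2 stays between 3048 and 3325 bp and Cdkn2d between 20062 and 20362 bp. Every gene except Cdkn2a is nearer to a peak in both E14 libraries than in either E17 library. The margin is small at Ccnd2, Cdkn2d and Ccnd3. The E14 lists hold more peaks, and the median over protein-coding genes is likewise nearer to a peak at E14. The share of all genes with this order of distances was not counted, so the order is not read as a trait of these genes.

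The distances are read against those of all protein-coding genes. The median distance from a protein-coding gene to the nearest peak was 22083 and 38064 bp at E14 and 76211 and 112892 bp at E17. Ccnd2, Cdkn2d and Ccnd1 were nearer to a peak than that median in all 4 libraries. In all 4 lists 22.6% of protein-coding genes had a peak within 20 kb of the body, and among the members Cdkn2a, Cdkn2b and Ccnd2 did.

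Summed over the 8 loci, the peaks covered 24111 and 21811 bp at E14 (22961 ± 1626, SD, n = 2) and 17320 and 17093 bp at E17 (17206 ± 161, SD, n = 2). The sum was 25.1% lower at E17 (exact permutation test, p = 0.333) and at E17 came from Cdkn2a alone. The difference of 5754 bp was larger than the spread between replicates, and was 3676 bp with lists of equal number and 2818 bp with lists of equal covered length. The E14 lists covered more of the genome than the E17 lists, and the part of this in the result was not tested apart from those settings.

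Members rich in CpG at the first annotated start site included genes with and without a peak in the scored stretch. That start site itself lay outside the peaks of every library, also at Cdkn2a, Cdkn2b and Cdkn2c. In 1001 bp centred on that site, Cdkn2a (at Arf) had 108 CpG, the percentile 95.4 of 21931 protein-coding genes, while Cdkn1b, with no peak near it, had 91 (percentile 89.4). Cdkn2b had 63, Cdkn2d 61, Cdkn2c 59 and Ccnd1 58, beside a median of 41.0 over protein-coding genes. Ccnd2 had 50 (percentile 57.5). At the other end Ccnd3 had 36 and Cdkn1a 7, the latter at percentile 15.3. Ccnd3 and Cdkn1a have 19 and 5 annotated start sites, and only the first of each was scored. Over protein-coding genes with a CpG observed-over-expected ratio of at least 0.6, 14.6% were marked in all 4 libraries, and of those below it 9.88% were.

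The remaining genes of the pathway were mostly without peaks, as were protein-coding genes at large. Of 30 other genes for kinases, cyclins, retinoblastoma proteins, E2F factors and their regulators, 3 had a start-site peak in both E14 libraries (Cdkn1c, Cdk4 and Ccna1), 2 in both E17 libraries (Cdkn1c and Cdk4) and 25 in none. These counts compare with the 19.5% and 12.2% of protein-coding genes given above, and with the 70.7% that had no peak in any list. Cdkn1c, the imprinted gene of the third CIP/KIP inhibitor p57, was covered over 730 and 2043 bp at E14 and 1669 and 1973 bp at E17, so that the stages overlapped. Cdk4, whose kinase the INK4 proteins bind, had 1707 and 1678 bp in its window at E14 and 1110 and 1389 bp at E17. The Cdk4 peaks lay 1294 to 1883 bp from a start site and did not reach the gene body. Ccna1, a cyclin of the germ line, had 6940 and 3237 bp at E14 and 937 and 0 bp at E17. E2f5 had a peak in E14 replicate 1 and E17 replicate 2, and Tfdp2 in E14 replicate 1.

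Among the 34 protein-coding neighbours with a start site within 100 kb of a member, 10 were marked in both E14 libraries and 7 in all 4, beside 19.5% and 12.0% of all protein-coding genes. The 7 were Cpne5 near Cdkn1a, Ap1m2 and S1pr5 near Cdkn2d, Fgf15, Fgf4 and Fgf3 near Ccnd1, and 1700001C19Rik near Ccnd3. The 3 marked in both E14 libraries and in neither E17 library were Gpr19 near Cdkn1b, Keap1 near Cdkn2d and Fgf23 near Ccnd2. At Keap1 the E14 cover (986 and 1092 bp) was the edge of the peak over S1pr5. The E17 peaks over S1pr5 began outside the Keap1 window, so this call reflects the window's edge. Fgf23 kept 641 bp of cover in its body in E17 replicate 1. Crebl2, Tigar and AI661453 had a start-site peak in E14 replicate 1 alone. The members of these neighbourhoods had no start-site peak themselves.

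The label of the cells was set beside markers, which can test it only weakly. None of 9 fibroblast markers had a start-site peak in any library. In all 4 libraries 2 of 5 keratinocyte, 2 of 4 melanocyte or Schwann cell, 1 of 4 endothelial and 2 of 4 muscle markers were marked. Over all protein-coding genes 12.0% were marked in all 4 libraries, and 70.7% had no peak in any list. No start-site peak was found either at 3 keratinocyte, 2 melanocyte or Schwann cell, 3 endothelial, 1 muscle and 3 immune markers. The lack of a peak at the fibroblast markers thus does not identify the cells. Of the 4 immune markers 1 was marked in both E14 libraries and none in the E17 libraries. Peaks at markers of other lineages do not measure the share of such cells, and the part of cell makeup in the results was not tested.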

How the data were processed

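H3K27me3 ChIP-seq libraries of cultured wild-type dermal fibroblasts were analysed, 2 labelled E14 and 2 labelled E17. Per the methods the authors aligned reads with bowtie2, then ran MACS2 in its broad mode with a q-value cutoff of 0.01. The submitters' processing notes name Bowtie2 2.3.5.1, SAMtools 1.9, MACS2 2.2.7.1, deepTools 3.5.1 and mm10. The peak-call control and the read filters are not given in the sources used here, and it is not clear whether a subsampling to equal read depth stated for E18.5 samples covers these libraries. Labels and methods differ on the stage, the medium, the fragmentation (sonication or enzymatic) and the library kit. In the lists the authors deposited, replicates were not pooled, and each peak has a fold enrichment (a ratio averaged over the peak), and, on the −log10 scale, its p-value and its q-value, beside a score column that was not read.

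Genes and start sites were those of GENCODE vM21 (GRCm38), and an overlap of at least 1 bp counted. Covered length is the merged length of a list's peaks in the start-site windows of 3000 bp and the gene body. Percentiles rank fold enrichment within a list. Stages were compared by exact permutation tests, two-sided, over the 4 libraries, as peak lists cannot repeat a test on reads. Python 3.11.15 with numpy 2.4.6 and pandas 2.3.3 was used, and the scoring was tested on simulated data. The genes named are the 9 members, the genes of a list of 30 pathway genes with a start-site peak in any list, and protein-coding neighbours within 100 kb that were marked in any list or nearest to a member. The members and lists were chosen with earlier results of these data known. Alternatives varied the window, the peak threshold, the list size, the overlap, the joining of genes or peaks, the scored stretch, the libraries and the replicate block.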

Additional observations from a re-analysis of the deposited data

How the results depend on the processing

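The loci marked in both E14 libraries numbered 1, and 2 with windows of 5000 bp (Ccnd2 added), 4 with windows of 10000 bp, 2 with the 9 genes scored separately and 1 to 2 with each library left out in turn. For both E17 libraries the count was 1, and 2 with windows of 5000 or 10000 bp. The loci with less covered length in both E17 libraries numbered 1, and 3 with windows of 10000 bp, 2 with the 9 genes scored separately and 1 to 2 with each library left out, where the count of 2 was without E14 replicate 2. The summed covered length differed by -5754 bp between E17 and E14 and kept its direction in all 19 alternatives (from -13012 bp with windows of 10000 bp to -2818 bp with top peaks of equal covered length, and -6904 to -4604 bp with each library left out). The median percentile of the strongest peak over loci with a peak in all 4 lists, which is that of Cdkn2a alone except with windows of 5000 or 10000 bp, where Ccnd2 enters, differed by -2.31 and by 6.70 with top peaks of equal covered length, a reversal whose cause was not tested, while the other alternatives gave -12.69 to -0.37, and -3.18 to -1.44 with each library left out. With the replicate number as a block, the differences were -5754 bp and -2.31 with an exact sign-flip p of 0.500, the smallest that 2 pairs allow. The deviations of same-numbered libraries from their stage means correlated at 0.57 across 6431 genes, which are not independent, but the labels do not tie a number to an animal or batch, so the libraries were not treated as pairs. With no read numbers in the lists and 2 libraries at each stage, a missing peak may have fallen little short of the cutoff.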
